A study of Homo sapiens with 12 samples.

Results

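The response of U-937 cells to honokiol was described across the genes that this line expressed. A gene was retained where 3 or more of the 6 U-937 libraries reached an FPKM of 0.5, which left 13726 of the 36866 genes of the deposited table. FPKM is a fragment count scaled by transcript length and library size, so it can be compared between genes. The 6 libraries (of 12 in the series) were 3 of cells incubated with honokiol for 24 h and 3 of cells that received the vehicle DMSO alone for 24 h, at 0.1% DMSO. U-937 is an established human myeloid line that grows as immature monocyte-like cells and that the labels give as AML with a complex karyotype. The sequencing methods name no dose. The labels list 20 and 35 μM without naming the line, and the study's other assays used 35 μM for U-937. The study asked which genes and pathways honokiol alters in AML cells and whether they include those of ferroptosis. All libraries came from 1 line, and the sources used here say of replication only that experiments of the study were repeated, not that these libraries came from separate cultures, so every p-value below measures the spread between these libraries only.

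Honokiol is a biphenyl neolignan of magnolia bark. Ferroptosis is a form of cell death driven by iron-dependent peroxidation of membrane lipids, which the cystine importer SLC7A11, glutathione and the peroxidase GPX4 hold back, and which heme oxygenase HMOX1, the lipid ligase ACSL4 and the polyamine enzyme SAT1 are known to influence. Cells short of amino acids or with misfolded protein in the endoplasmic reticulum (ER) phosphorylate eIF2α and translate the transcription factor ATF4, which induces amino acid synthesis and transport genes and the factor DDIT3 (CHOP). In macrophages, the nuclear receptors PPAR and LXR sense fatty acids and oxysterols and induce genes of lipid storage, fatty acid oxidation and sterol export.

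The DEG with the smallest p-value was the microRNA gene MIR4707, and its mature sequences in RefSeq (GRCh38.p14) are shown because they are the product its name stands for. The seed, bases 2 to 8, is in capitals. The 3p arm lies at chr14:22956957-22956978 and the 5p arm at chr14:22956998-22957020, both on the minus strand, and their seeds differ.
hsa-miR-4707-3p: aGCCCGCCccagccgagguucu
hsa-miR-4707-5p: gCCCCGGCgcgggcggguucugg

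Promoters are shown for interferon, ER stress, ATF4-program and glucose-responsive genes, and motif counts are given for 2 further groups, all described further on. Each line is part of the 250 bases before the first RefSeq start of the gene, read 5′ to 3′ on the gene's strand (GRCh38.p14), with the motif match in capitals. The table of promoters held 9098 of the 13726 genes by symbol. Motifs were searched on both strands, so the capitals can be the reverse complement of the letters named. The interferon-stimulated response element, GAAANNGAAA, was in the promoters of 9 of 18 interferon-stimulated genes with a sequence (50.0%) and in 218 of all 9098 (2.40%), and IFI6 (chr1:27672256-27672305), SAMD9 (chr7:93118086-93118135) and IFIT3 (chr10:89327855-89327904) are shown. The ER stress response element, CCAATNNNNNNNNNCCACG, was in 6 of 24 promoters of the ER unfolded protein response list and in 14 of all (0.154%), and HSPA5 (chr9:125241371-125241429) and HSP90B1 (chr12:103930301-103930359) are shown. The C/EBP-ATF response element, TGATGNAA, was in 3 of 25 promoters of the ATF4 list (ATF3, CHAC1 and ASNS) and in 117 of all (1.29%), and ASNS is shown at chr7:97872449-97872496. TXNIP, at chr1:145996631-145996687, held the carbohydrate response element, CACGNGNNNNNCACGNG, which 13 of all promoters held (0.143%) and none of the other 5 promoters of its group. The antioxidant response element, TGACNNNGCA, was in 3 of 23 promoters of NRF2 targets and glutathione genes and in 198 of all (2.18%), and the heat shock element, GAANNTTCNNGAA, in 2 of 20 promoters of the heat shock list and in 25 of all (0.275%). These matches describe the letters in the windows and are not measured binding sites.
IFI6: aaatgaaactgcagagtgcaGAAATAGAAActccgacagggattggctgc
SAMD9: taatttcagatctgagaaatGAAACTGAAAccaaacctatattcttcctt
IFIT3: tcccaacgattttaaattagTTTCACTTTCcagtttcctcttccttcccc
HSPA5: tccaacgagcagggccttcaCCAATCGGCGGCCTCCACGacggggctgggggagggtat
HSP90B1: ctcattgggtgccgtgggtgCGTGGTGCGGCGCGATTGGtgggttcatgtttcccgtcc
ASNS: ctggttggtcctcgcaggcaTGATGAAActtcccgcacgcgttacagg
TXNIP: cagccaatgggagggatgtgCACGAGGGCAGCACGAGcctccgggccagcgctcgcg

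The estimated counts of the 6 libraries summed to 57406966 to 70265512. A fragment is mostly worth 4 counts, so the libraries held about 14351742 to 17566378 fragments. Libraries of the same treatment had Pearson's r of 0.964 to 0.974 between their log2 CPM values (across genes, which are not independent replicates). DMSO replicate 1 stood apart: its mitochondrially encoded genes took 12.6% of the counts, against 5.61% to 6.93% in the other 5 libraries, and group results are therefore also given without it. Of 24 myeloid marker genes, 22 to 23 reached the FPKM limit in each library, and MPO, which encodes myeloperoxidase, did not in any. Of 19 markers of other lineages in the table, 3 were tested, PECAM1 and CD79A among them, and 16 stayed below the limit in all 6 libraries.

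The number of genes that differed beyond the spread between libraries depended on the test. Differentially expressed genes (DEGs) were those that edgeR's quasi-likelihood test put at an adjusted p below 0.05 with a log2 fold change beyond 1 in either direction, where p was adjusted by Benjamini-Hochberg over the 13726 genes. There were 13 DEGs (0.0947% of the genes tested), of which 9 rose and 4 fell. At the same thresholds DESeq2 gave 224 and the likelihood ratio test 185, and the quasi-likelihood test gave 0 with a replicate block and 0 without DMSO replicate 2. Without a limit on the fold change, 2291 genes (16.7%) had an unadjusted p below 0.05 in the quasi-likelihood test. At the looser nominal limit (unadjusted p below 0.05 with the same fold change), 241 genes were higher (1.76%) and 106 were lower (0.772%), so 69.5% of the 347 were higher. Limma on log2(FPKM + 0.5) put 188 genes past the nominal limit, 82.4% of them higher. The 3 honokiol values all lay above the 3 DMSO values for 2282 genes (16.6%) and all below for 1034 (7.53%). Overlap was judged on FPKM as deposited, without the normalization of the main test (TMM). On log2(FPKM + 0.5) the median difference over all genes was 0.09. How much of the excess of higher genes comes from this scale was not tested. A gene below an FPKM of 0.5 in every library of 1 treatment was retained only through the other. The filter alone then fixed its direction and its lack of overlap. Named genes retained only through honokiol include MIR4707, GDF15, APOE, OASL and CD38. Those retained only through DMSO include AC024075, AC135050 and INHBB. In the main test the median log2 fold change of all genes was 0.02. The verbs rose and fell are used below only of DEGs, and other genes are given with their values. With any 1 library left out, MIR4707 stayed past an adjusted p of 0.05 in 5 of the 6 fits (edgeR adjusted p of 0.0192 to 0.0727). SAT1 did so in 4 (0.0236 to 0.0760) and the other 11 DEGs in at most 1. No DEG changed direction in any alternative, but for MIR4707, AC024075 and AC135050 the filter had fixed the direction. DESeq2 gave all 13 an adjusted p of 3.64e-09 or less. With 3 libraries against 3, an exact permutation test of a single gene cannot go below p = 0.1.

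**Figure D1:**
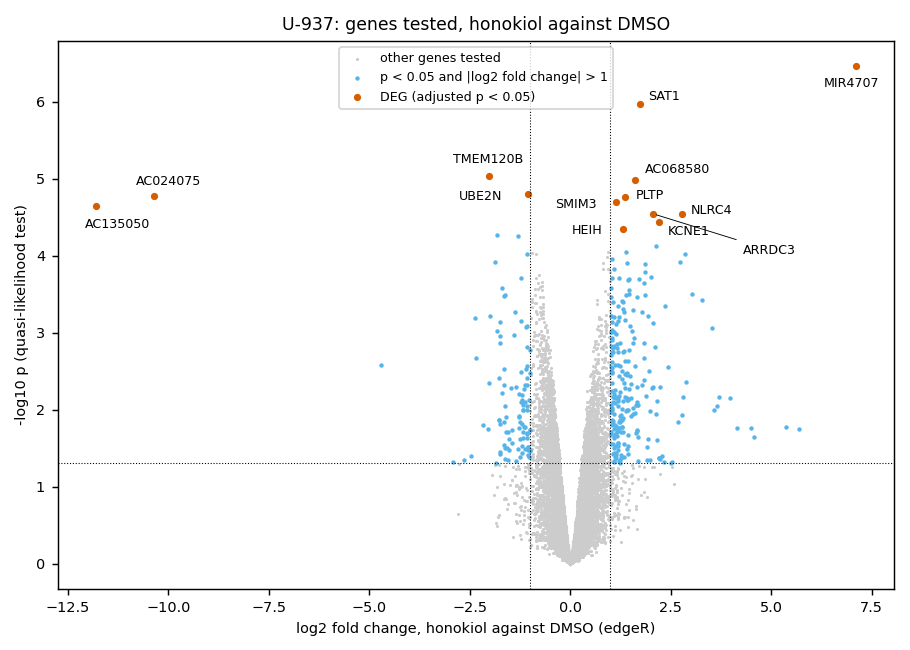
Log2 fold change of honokiol against DMSO (x) and -log10 of the quasi-likelihood p (y) for the 13726 genes tested in U-937. The 13 DEGs are named in orange, 9 to the right and 4 to the left of 0, and the other genes past the nominal limit are blue; the 2 genes beyond -10 had no count in any honokiol library, so the size of their fitted change depends on the model's prior count.

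SAT1, which acetylates spermidine and spermine so that they can be exported or broken down, was the protein-coding DEG with the smallest p-value. Its FPKM was 15.2, 13.5 and 14.6 in the DMSO libraries and 51.0, 54.8 and 46.6 in the honokiol libraries. The groups were far apart relative to their spread: 14.4 ± 0.85 against 50.8 ± 4.12 FPKM (SD, n = 3), a log2 fold change of 1.72 ± 0.13 (SE, adjusted p = 0.00727 by edgeR's quasi-likelihood test). The other 14 tested genes of polyamine metabolism held no DEG. SRM, the spermidine synthase, went the other way in value, at 225, 179 and 165 FPKM with DMSO and 109, 123 and 112 with honokiol (log2 fold change -0.82, edgeR adjusted p = 0.0945). The median over the 15 genes was 0.07, near that of all genes.

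PLTP, the phospholipid transfer protein and an LXR target, rose from 12.8, 10.5 and 10.6 FPKM to 30.5, 31.2 and 30.9 (log2 fold change 1.35 ± 0.15, edgeR adjusted p = 0.0337). The 3 honokiol libraries were within 1 FPKM of each other and clear of all DMSO libraries. Its locus overlaps CTSA on the opposite strand, and the sources used here do not say whether counting used the strand.

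NLRC4, the inflammasome sensor adaptor for bacterial flagellin and secretion system proteins, rose from 0.39, 0.87 and 0.55 FPKM to 4.28, 3.52 and 5.31 (log2 fold change 2.77 ± 0.33, edgeR adjusted p = 0.0359). It was the only DEG of 18 tested inflammasome genes, whose median was 0.04. ARRDC3, an alpha-arrestin that promotes internalization of membrane receptors, rose from 0.69, 0.54 and 0.46 FPKM to 2.75, 2.53 and 2.34 (2.06 ± 0.24, edgeR adjusted p = 0.0359). SMIM3, a small integral membrane protein, rose from 8.95, 10.7 and 10.3 FPKM to 22.8, 23.1 and 24.3 (1.14 ± 0.13, edgeR adjusted p = 0.0345). In all 3 genes the treatments did not overlap.

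KCNE1, an accessory subunit of voltage-gated potassium channels, rose from 0.83, 0.81 and 0.57 FPKM to 2.68, 3.93 and 4.39 (log2 fold change 2.21 ± 0.27, edgeR adjusted p = 0.0417). The table also lists its near-identical copy KCNE1B, at 0.50, 0.42 and 0.26 FPKM with DMSO and 2.99, 1.73 and 3.68 with honokiol (2.73, edgeR adjusted p = 0.0607). How reads were split between the copies is uncertain.

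The noncoding DEGs lay in other genes or opposite them. MIR4707 had 1 estimated count in each DMSO library and 170, 168 and 123 in the honokiol libraries (listed as 0 and as 29.4, 30.5 and 22.0 FPKM). A single count is less than a fragment, so the DMSO level was taken as no more than 3 fragments (12 counts) per library, which makes the honokiol level at least 13.7-fold higher per total count (edgeR adjusted p = 0.00466). The hairpin, 80 bases at chr14:22956950-22957029 (GRCh38), lies in exons of 13 of the 21 HAUS4 transcripts of GENCODE 29 on the same strand, so that fragments of HAUS4 mRNA can be counted for it. HAUS4, a subunit of the augmin complex of the spindle, was at 6.24, 7.07 and 7.99 FPKM with DMSO and 11.97, 12.5 and 9.84 with honokiol (log2 fold change 0.59, edgeR adjusted p = 0.148). The libraries hold mRNA, and the mature microRNAs printed above were not measured.

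HEIH, a long noncoding RNA named for its expression in hepatocellular carcinoma, rose from 6.51, 6.79 and 5.86 FPKM to 14.7, 18.9 and 16.9 (log2 fold change 1.3 ± 0.16, edgeR adjusted p = 0.0475). It overlaps LINC00847 on the other strand. AC068580 (ENSG00000235027) rose from 4.23, 5.15 and 4.70 FPKM to 13.1, 16.6 and 16.3 (1.62 ± 0.17, edgeR adjusted p = 0.0337). It lies opposite CTSD, the lysosomal protease cathepsin D, which was at 488, 628 and 423 FPKM with DMSO and 963, 1137 and 1265 with honokiol (1.04, edgeR adjusted p = 0.0798), so that without strand the reads of this pair cannot be told apart.

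Of the 4 genes that fell, TMEM120B and UBE2N carry a gene symbol. TMEM120B, a nuclear envelope protein with a role in adipocyte differentiation, fell from 1.87, 2.69 and 2.80 FPKM to 0.73, 0.58 and 0.60 (log2 fold change -2.03 ± 0.21, edgeR adjusted p = 0.0337). UBE2N, the ubiquitin-conjugating enzyme that builds lysine-63 chains in Toll-like receptor and DNA damage signalling, fell from 14.7, 15.3 and 17.4 FPKM to 8.11, 8.29 and 7.78 (-1.06 ± 0.12, edgeR adjusted p = 0.0337); it overlaps NUDT4 on the other strand. In both the honokiol libraries were all below the lowest DMSO library.

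The remaining pair are AC024075 (ENSG00000267904), a noncoding model inside an intron of SMIM7, and AC135050 (ENSG00000255439), a protein-coding model that spans PRSS53 and VKORC1. They had 183, 188 and 111 and 173, 506 and 726 estimated counts with DMSO and none in any honokiol library. With the honokiol libraries at the same floor of 3 fragments, they were at least 12.5-fold and at least 35.2-fold lower (edgeR adjusted p = 0.0337 and 0.0345). On the same strand, SMIM7 (3.35 to 4.17 FPKM with honokiol) and VKORC1 (16.7 to 18.0 FPKM with honokiol) differed from DMSO by 0.10 and 0.17 on the log2 scale (edgeR adjusted p = 0.808 and 0.620). Whether fragments were assigned to another model of the same locus was not tested.

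**Figure D2:**
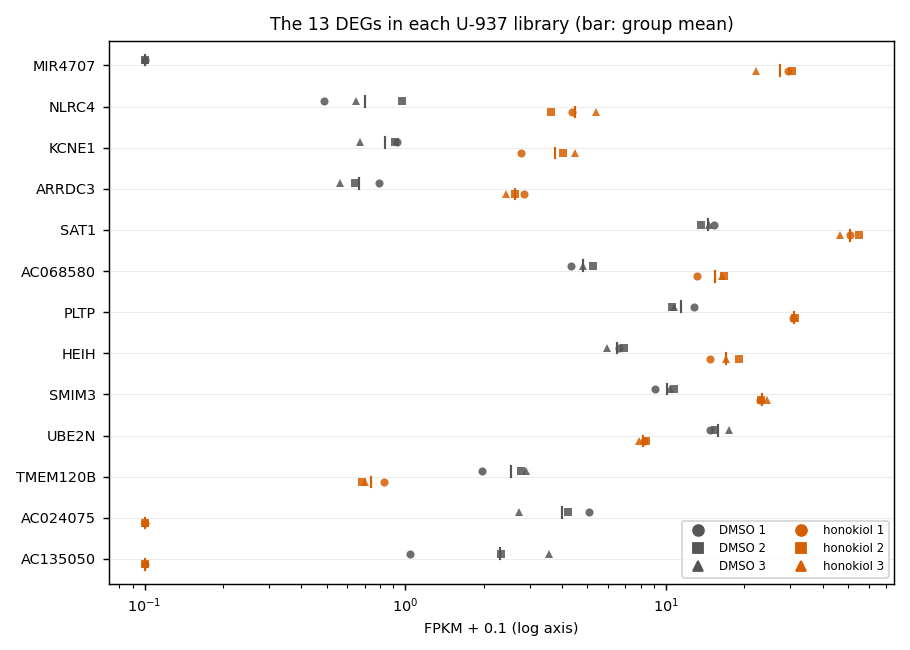
FPKM + 0.1 (log axis) of the 13 DEGs in each of the 6 U-937 libraries, ordered by fitted log2 fold change, with DMSO in grey, honokiol in orange, a symbol for each replicate and a bar at the group mean. In each gene the 3 honokiol symbols lie on the same side of the 3 DMSO symbols, which for MIR4707, AC024075 and AC135050 the filter fixed. Values of 0 are drawn at 0.1.

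Genes of lipid storage were among the largest differences in value, though only PLTP of the lipid genes was a DEG. PLIN2, the main coat protein of lipid droplets outside fat cells, was at 10.0, 29.1 and 6.83 FPKM with DMSO and 86.1, 139 and 330 with honokiol (log2 fold change 3.52 ± 0.68, edgeR adjusted p = 0.0842). FABP4, a fatty acid carrier of fat cells and macrophages, was at 0, 2.30 and 0.18 FPKM with DMSO and 5.69, 5.44 and 47.9 with honokiol (4.49 ± 1.5, edgeR adjusted p = 0.212). CREB3L3, a membrane-bound factor that induces fatty acid oxidation and FGF21 in liver, was at 0.17, 1.16 and 0 FPKM and at 2.40, 4.05 and 18.8 (4.15 ± 1.39, edgeR adjusted p = 0.212). In these 3 genes the treatments did not overlap, honokiol replicate 3 was highest, and DMSO replicate 2 was the highest of the controls.

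Of 16 tested genes of lipid droplet coats and lipases, 4 were past the nominal limit and higher, beside 1.76% of all genes. They were PLIN2, FABP4, PLIN4 and the monoglyceride lipase MGLL. There were 7 that did not overlap, all higher (43.8%, beside 16.6% of all genes). MGLL was at 10.0, 9.95 and 9 FPKM with DMSO and 14.6, 23.2 and 25.6 with honokiol (1.04, edgeR adjusted p = 0.0945). The median of the 16 was 0.34, beside 0.02 for all genes.

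Most genes of fatty acid oxidation had higher values with honokiol by modest amounts. Of the 23 tested, 2 were past the nominal limit and higher, beside 1.76% of all genes. There were 22 with a positive log2 fold change and 16 that did not overlap, all higher (69.6%, beside 16.6% of all genes). The median was 0.36. SLC25A20, which carries acylcarnitines into the mitochondrial matrix, was at 3.08, 4.79 and 2.70 FPKM with DMSO and 4.96, 7.82 and 14.5 with honokiol (1.28, edgeR adjusted p = 0.197). ACAA2, the last enzyme of mitochondrial beta-oxidation, was at 6.34, 8.64 and 9.74 FPKM and at 18.4, 17.2 and 16.4 (0.99, edgeR adjusted p = 0.0643). ETFDH, which passes electrons from this pathway to ubiquinone, was at 2.28, 2.60 and 2.96 FPKM and at 5.33, 4.92 and 5.68 (0.94, edgeR adjusted p = 0.0711). ACADVL, the dehydrogenase for very long chains, was at 18.2, 19.8 and 19.2 FPKM and at 34.4, 30.1 and 47.6 (0.88, edgeR adjusted p = 0.0989). No gene of the group was a DEG, and without DMSO replicate 1 its median was 0.28.

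Besides PLTP, the LXR group held NR1H3 and APOE past the nominal limit. NR1H3, which encodes LXRα itself, was at 0.87, 0.61 and 0.61 FPKM with DMSO and 1.32, 2.59 and 2 with honokiol (log2 fold change 1.37, edgeR adjusted p = 0.115). APOE, the lipoprotein component that macrophages secrete with cholesterol, was at 0.27, 0.31 and 0.18 FPKM and at 0.72, 0.74 and 0.69 (1.42, edgeR adjusted p = 0.132). LPCAT3, which places arachidonate in phospholipids, and SREBF1, the master factor of fatty acid synthesis, each had a log2 fold change of 0.61 (edgeR adjusted p = 0.114 and 0.125). The 10 tested genes had a median of 0.52, with 6 not overlapping and higher (60.0%, beside 16.6% of all genes) and 1, the lipoprotein receptor SCARB1, not overlapping and lower (7.53% of all genes). Of the 10, 3 were past the nominal limit and higher, beside 1.76% of all genes. APOE is in both counts although it was retained only through its honokiol libraries, so the filter fixed its direction.

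Among 20 genes of fatty acid synthesis and desaturation, ACACB and SCD were past the nominal limit. ACACB, the mitochondrial acetyl-CoA carboxylase whose product malonyl-CoA limits fatty acid import, was at 1.08, 0.86 and 1.38 FPKM with DMSO and 2.97, 3.42 and 2.94 with honokiol (1.40 ± 0.19, edgeR adjusted p = 0.0598). SCD, the stearoyl-CoA desaturase, was at 164, 213 and 271 FPKM and at 502, 385 and 521 (1.04, edgeR adjusted p = 0.0872). ACSL1, which activates long-chain fatty acids, had a log2 fold change of 0.94 (edgeR adjusted p = 0.116). By contrast with fatty acids, none of 24 cholesterol synthesis genes passed the nominal limit, and their median of 0.08 became -0.06 without DMSO replicate 1.

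The genes that the study examined for ferroptosis showed different patterns. SLC7A11 was at 2.63, 2.11 and 3.20 FPKM with DMSO and 6.20, 7.34 and 8.97 with honokiol (log2 fold change 1.42 ± 0.21, edgeR adjusted p = 0.0607). HMOX1 was at 2.03, 2.87 and 2.96 FPKM and at 6.44, 9.46 and 7.17 (1.43 ± 0.22, edgeR adjusted p = 0.0637). Both were clear of the DMSO range in every library and missed the DEG threshold in this test, while DESeq2 on the same genes gave adjusted p-values of 4.78e-07 and 1.65e-06. ACSL4 was at 9.78, 12.6 and 12.3 FPKM and at 25.8, 12.9 and 16.5 (0.59, edgeR adjusted p = 0.287). The gap between the treatments was thus carried by honokiol replicate 1, and honokiol replicate 2 lay near the highest DMSO library.

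GPX4 was at 68.0, 58.6 and 57.1 FPKM with DMSO and 59.5, 62.8 and 65.3 with honokiol (log2 fold change -0.07 ± 0.14, edgeR adjusted p = 0.853). The treatments overlapped, and the sign of the difference changed on the FPKM scale and without DMSO replicate 1. TFRC, the transferrin receptor, was at 30.9, 81.2 and 64.0 FPKM and at 58.2, 51.2 and 66.6 (-0.07 ± 0.30, edgeR adjusted p = 0.931), with DMSO replicate 1 the lowest of the 6 libraries. CHAC1, which degrades glutathione, was low throughout, at 0.69, 0.16 and 0.67 FPKM and at 0.86, 0.82 and 0.73 (0.55 ± 0.52, edgeR adjusted p = 0.632).

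The medians of the wider redox and iron groups were near 0, and that of lipid peroxidation enzymes was higher. Of 30 NRF2 targets and glutathione genes, SLC7A11 and HMOX1 were past the nominal limit, and the median was -0.05. IDH1, the cytosolic source of NADPH, had a log2 fold change of 0.81 (edgeR adjusted p = 0.125), and BACH1, the repressor of HMOX1, of 0.67 (edgeR adjusted p = 0.0995). None of 18 iron handling genes passed the nominal limit, with a median of -0.03. Among 13 lipid peroxidation enzymes the median was 0.45, 11 had a positive log2 fold change and 6 did not overlap and were higher (46.2%, beside 16.6% of all genes). Their gene past the nominal limit, PTGS1, the constitutive cyclooxygenase, was at 11.1, 8.23 and 11.1 FPKM with DMSO and 27.0, 21.9 and 16.4 with honokiol (1.0, edgeR adjusted p = 0.0989). The signs of the medians of the NRF2 and iron groups changed on the FPKM scale.

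By count, the ATF4 program held more genes past the nominal limit than any other list examined. The share was higher in the LXR list (3 of 10), the alpha-arrestin list (2 of 6) and the genes of the study's text (6 of 12). Of 35 tested genes of the ATF4 list, 10 were past the nominal limit, all higher (28.6%, beside 1.76% of all genes). There were 23 that did not overlap, all higher (65.7%, beside 16.6%), and the median was 0.57, or 0.62 without DMSO replicate 1. None was a DEG. DDIT4 (REDD1), an inhibitor of mTORC1, came closest, at 46.9, 23.3 and 35.5 FPKM with DMSO and 189, 183 and 127 with honokiol (log2 fold change 2.14 ± 0.29, edgeR adjusted p = 0.0598). SESN2, a leucine sensor upstream of mTORC1, was at 6.65, 4.92 and 9.31 FPKM and at 19.9, 17.9 and 16.8 (1.3, edgeR adjusted p = 0.0711).

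The transcription factors of the program differed among themselves. DDIT3 was at 4.76, 5.49 and 4.66 FPKM with DMSO and 10.65, 18.4 and 14.97 with honokiol (log2 fold change 1.47, edgeR adjusted p = 0.0637). CEBPB, which also drives monocyte maturation, was at 59.6, 45.7 and 45.8 FPKM and at 114, 114 and 118 (1.10, edgeR adjusted p = 0.0624). ATF4 itself and CEBPG had log2 fold changes of 0.57 and 0.51 (edgeR adjusted p = 0.177 and 0.159). ATF3 was at 0.44 and ATF5 at -0.33 on the same scale (edgeR adjusted p = 0.691 and 0.697), and the treatments overlapped in both. Outside the factors, GDF15, a secreted stress cytokine, was low, at 0.16, 0.19 and 0.09 FPKM and at 0.63, 1.66 and 1.69 (3.02 ± 0.50, edgeR adjusted p = 0.0687). The counts of the list include GDF15 although it was retained only through its honokiol libraries, so the filter fixed its direction.

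Its members past the nominal limit included genes of amino acid synthesis. ASNS, the asparagine synthetase, was at 2.22, 1.88 and 2.06 FPKM with DMSO and 6.44, 4.01 and 4.15 with honokiol (log2 fold change 1.15, edgeR adjusted p = 0.0897); the letters of the C/EBP-ATF response element in its promoter are printed above. PSAT1, of serine synthesis, was at 18.9, 27.6 and 61.7 FPKM and at 132, 91.3 and 80 (1.42, edgeR adjusted p = 0.159), so that DMSO replicate 3 lay much nearer to the honokiol libraries than the other controls. The tRNA synthetase genes AARS1 and WARS1 each had a log2 fold change of 1.02 (edgeR adjusted p = 0.0876 and 0.0776). They were the only genes past the nominal limit of the 44 tested in the KEGG pathway Aminoacyl-tRNA biosynthesis, of which 20 had a positive log2 fold change, with a median of -0.09. VLDLR, the very low density lipoprotein receptor, had a log2 fold change of 1.09 (edgeR adjusted p = 0.0776).

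**Figure D3:**
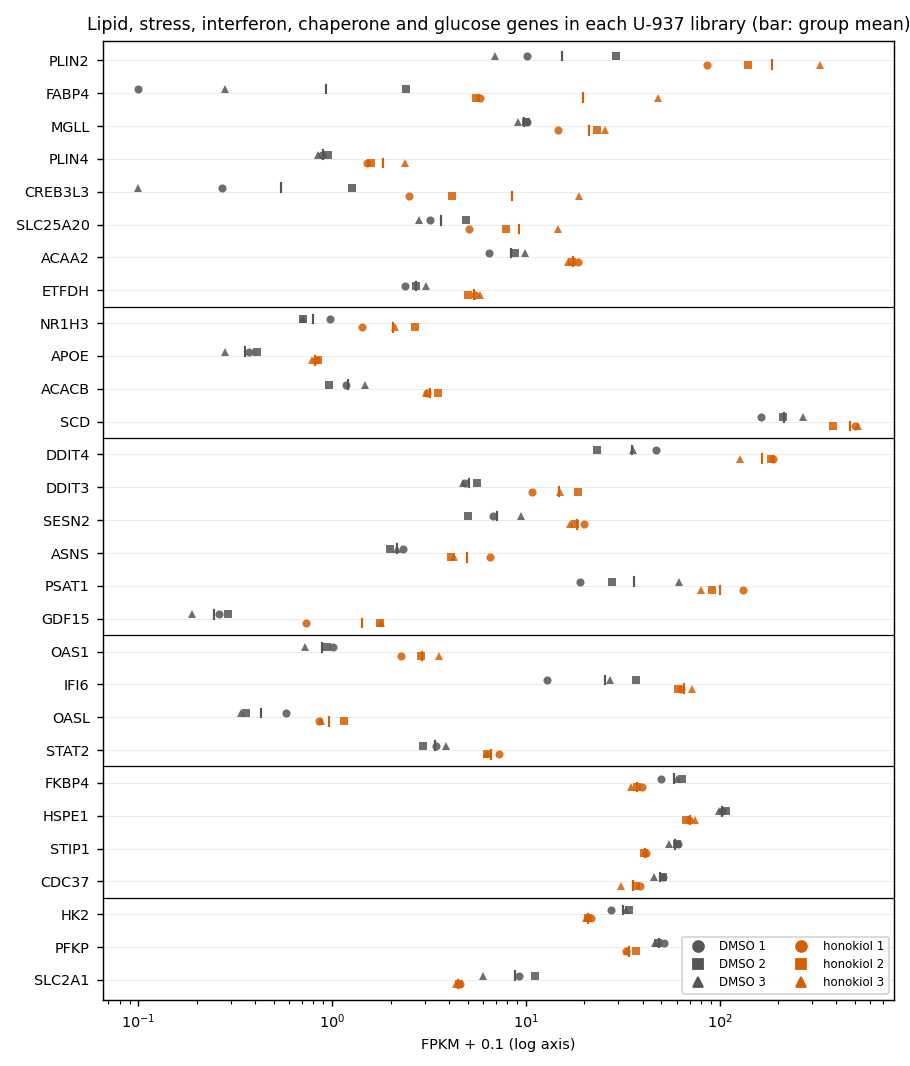
FPKM + 0.1 (log axis) in each of the 6 libraries for genes of lipid droplets and fatty acid oxidation, LXR targets and fatty acid synthesis, the ATF4 program, interferon-stimulated genes, heat shock co-chaperones and glycolysis (blocks from top to bottom, divided by lines), DMSO in grey, honokiol in orange and bars at group means. For the genes drawn, honokiol lies to the right in the upper 4 blocks and to the left in the lower 2. These are chosen members of their groups, and HK3 of glycolysis, higher with honokiol, is not drawn. PLIN2, FABP4 and CREB3L3 have the widest spread between honokiol libraries, with honokiol 3 highest.

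Most genes of the ER unfolded protein response had small positive differences. None of its 27 tested genes passed the nominal limit, 25 had a positive log2 fold change, 7 did not overlap, all higher (25.9%, beside 16.6% of all genes), and the median was 0.37. EIF2AK3, which encodes the eIF2α kinase PERK, was at 3.06, 3.34 and 3.08 FPKM with DMSO and 4.64, 6.10 and 6.70 with honokiol (0.79, edgeR adjusted p = 0.113), and HERPUD1, of ER-associated degradation, at 5.02, 4.42 and 5.01 FPKM and at 6.40, 9.72 and 10.5 (0.79, edgeR adjusted p = 0.148). The chaperone genes HSPA5 (BiP) and HSP90B1, whose ER stress response elements are printed above, had log2 fold changes of 0.52 ± 0.21 and 0.47 ± 0.22 (edgeR adjusted p = 0.281 and 0.322), and the treatments overlapped in both.

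Most genes of heat shock proteins and HSP90 co-chaperones had negative differences. Of 22 tested genes, 19 had a negative log2 fold change, 5 did not overlap, all lower (22.7%, beside 7.53% of all genes), and the median was -0.39, with none past the nominal limit. FKBP4, an HSP90 co-chaperone of steroid receptors, was at 49.8, 63.5 and 60.2 FPKM with DMSO and 39.8, 37.2 and 34.8 with honokiol (log2 fold change -0.72 ± 0.13, edgeR adjusted p = 0.0751). HSPE1, the mitochondrial co-chaperonin, was at 102, 108 and 99.5 FPKM and at 69.3, 66.7 and 74.2 (-0.65, edgeR adjusted p = 0.0798). STIP1, which links HSP70 to HSP90, and CDC37, which brings kinases to HSP90, had log2 fold changes of -0.60 and -0.57 (edgeR adjusted p = 0.0965 and 0.131). Without DMSO replicate 1 the median was -0.37.

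**Figure D4:**
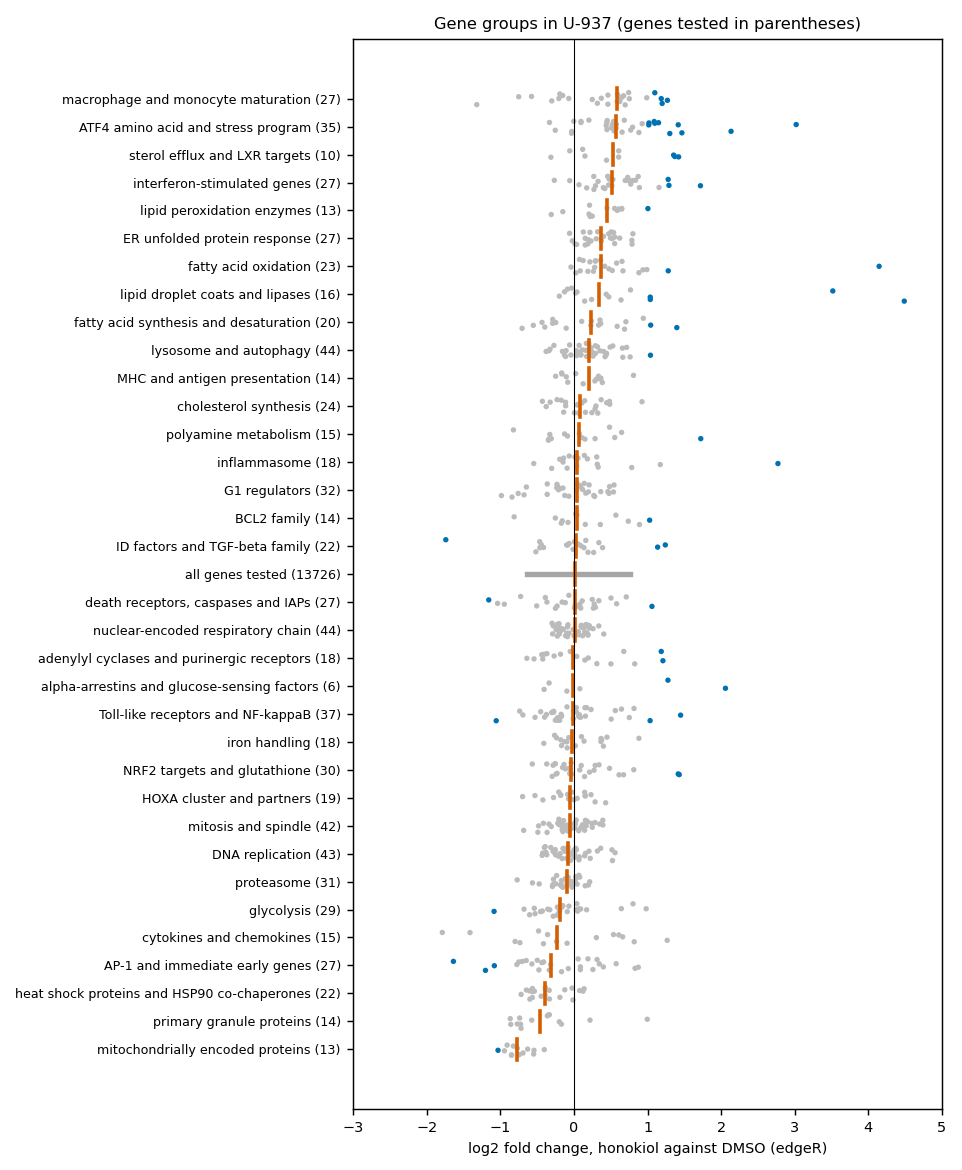
Log2 fold change of every tested member of 34 gene lists (points, blue where past the nominal limit) with the median of each list (orange bar), ordered by median; for all 13726 genes the grey bar spans the 5th to 95th percentile. Lipid, ATF4, interferon and maturation lists lie to the right and heat shock, granule and mitochondrially encoded genes to the left; list members are not independent of each other.

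Interferon-stimulated genes were higher in value across most of the group. Of 27 tested genes, 25 had a positive log2 fold change and 19 did not overlap, all higher (70.4%, beside 16.6% of all genes), with a median of 0.51 that became 0.70 without DMSO replicate 1; none was a DEG. OAS1, the oligoadenylate synthetase that activates RNase L, was at 0.91, 0.84 and 0.62 FPKM with DMSO and 2.16, 2.79 and 3.44 with honokiol (1.72 ± 0.27, edgeR adjusted p = 0.0637). IFI6, an antiviral mitochondrial and ER protein, was at 12.8, 36.8 and 27.0 FPKM and at 62.8, 60.8 and 72.05 (1.28, edgeR adjusted p = 0.140). OASL was at 0.48, 0.26 and 0.24 FPKM and at 0.75, 1.05 and 0.78 (1.29, edgeR adjusted p = 0.177). It was retained only through its honokiol libraries, so the filter fixed its direction and its lack of overlap. The transcription factor STAT2, a subunit of ISGF3, was at 3.32, 2.83 and 3.77 FPKM and at 7.15, 6.23 and 6.16 (0.89 ± 0.16, edgeR adjusted p = 0.0776).

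IFITM1, which restricts virus entry and overlaps IFITM2 on the same strand, was not on the list and went the other way in value. It was at 6.21, 3.45 and 6.85 FPKM with DMSO and 3.38, 2.43 and 1.41 with honokiol (log2 fold change -1.28, edgeR adjusted p = 0.191). Of the promoters that held the response element, IFI6, SAMD9 and IFIT3 belonged to genes at 1.28, 0.70 and 0.79 on the log2 scale without overlap, and ISG15 and BST2 to genes at 0.27 and -0.27 with overlap. MX2 and BST2 were the members with a negative log2 fold change.

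Upstream innate genes varied singly. Of 37 Toll-like receptor and NF-κB genes, UBE2N fell and the other genes past the nominal limit were MAP3K8 and TLR4; the median was -0.01. MAP3K8 (TPL2), the kinase that couples Toll-like receptors to ERK, was at 1.69, 1.34 and 1.31 FPKM with DMSO and 3.25, 4.46 and 4.96 with honokiol (log2 fold change 1.45, edgeR adjusted p = 0.0687). TLR4 was at 4.62, 7.59 and 4.94 FPKM and at 10.4, 11.1 and 15.7 (1.03, edgeR adjusted p = 0.116). None of 15 cytokine and chemokine genes passed the nominal limit, and their median of -0.24 became 0.62 without DMSO replicate 1 and 0.01 with limma on log2(FPKM + 0.1). TNF was at 22.0, 7.24 and 12.8 FPKM and at 7.72, 10.7 and 3.78 (-1.04, edgeR adjusted p = 0.326), and CCL2 at 126, 79.8 and 24.1 FPKM and at 16.9, 55.6 and 21.6 (-1.41, edgeR adjusted p = 0.312), so the control libraries alone spanned a wide range in both.

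Of 41 genes listed for monocyte and macrophage maturation, 14 did not pass the expression filter, MRC1 and MSR1 among them (0.02 FPKM or less). The 27 tested had a median of 0.59, or 0.67 without DMSO replicate 1 and 0.39 with limma on log2(FPKM + 1). Of the 27, 19 had a positive and 8 a negative log2 fold change, the lowest at -1.32. There were 11 that did not overlap, all higher (40.7%, beside 16.6% of all genes). CEBPB, P2RX7, MARCO and CD86 were past the nominal limit. P2RX7, the ATP-gated channel upstream of the NLRP3 inflammasome, was at 1.56, 1.03 and 2.51 FPKM with DMSO and 3.02, 5.20 and 4.12 with honokiol (log2 fold change 1.19, edgeR adjusted p = 0.161). In MARCO, a scavenger receptor, and the costimulatory CD86 the treatments overlapped (1.2 and 1.27, edgeR adjusted p = 0.250 and 0.283). The integrin genes ITGAL and ITGAM had log2 fold changes of 0.99 and 0.70 (edgeR adjusted p = 0.0957 and 0.175). S100A8, of the myeloid markers, was past the nominal limit and lower. It was at 2.33, 15.7 and 3.64 FPKM with DMSO and 1.75, 2.0 and 3.49 with honokiol, and the treatments overlapped.

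CD38, an NAD-consuming surface enzyme that retinoic acid induces in myeloid cells, was among the largest differences of protein-coding genes, at 0.37, 0.34 and 0.19 FPKM with DMSO and 3.19, 2.51 and 1.34 with honokiol (log2 fold change 2.86 ± 0.40, edgeR adjusted p = 0.0598). MS4A4A, a surface protein of macrophages, was at 1.77, 5.53 and 2.33 FPKM and at 9.41, 14.6 and 20.0 (2.11, edgeR adjusted p = 0.0989). CD52, a surface glycoprotein of lymphocytes and monocytes, ranged from 0.33 to 4.25 FPKM with DMSO and from 4.64 to 47.4 with honokiol (3.58 ± 1.07, edgeR adjusted p = 0.177). The water and glycerol channel genes AQP8 and AQP9 had log2 fold changes of 2.89 and 2.78 (edgeR adjusted p = 0.144 and 0.188).

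Genes of primary granules, which promyelocytes load with antimicrobial proteins, mostly had negative values. Of 14 tested, 12 had a negative log2 fold change, 2 did not overlap, both lower (14.3%, beside 7.53% of all genes), and the median was -0.47; none passed the nominal limit. CTSG, cathepsin G, was at 223, 183 and 208 FPKM with DMSO and 131, 151 and 80.2 with honokiol (-0.86, edgeR adjusted p = 0.148). LYZ, lysozyme, was at 298, 645 and 525 FPKM and at 307, 222 and 317 (-0.87, edgeR adjusted p = 0.189), with DMSO replicate 1 inside the honokiol range. MYB, the factor that keeps myeloid progenitors immature, was at 40.6, 38.7 and 48.6 FPKM and at 33.9, 26.7 and 23.1 (-0.70, edgeR adjusted p = 0.131).

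Cell cycle genes as a whole differed little. None of 32 G1 regulators, 43 DNA replication genes or 42 genes of mitosis and the spindle passed the nominal limit, and their medians were 0.04, -0.08 and -0.06. CCND3, cyclin D3, was at 38.3, 38.4 and 28.97 FPKM with DMSO and 15.8, 32.0 and 19.0 with honokiol (log2 fold change -0.76, edgeR adjusted p = 0.220), and the treatments overlapped. MCM7, of the replicative helicase, had a log2 fold change of -0.39 and CDK1 of 0.39 (edgeR adjusted p = 0.216 and 0.176). The medians of the last pair of lists changed sign on the FPKM scale.

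Apoptosis genes past the nominal limit were few. Of 14 BCL2 family genes, BCL2L11 (BIM), a killer protein of the BH3-only class, was at 3.88, 4.31 and 3.53 FPKM with DMSO and 8.50, 6.16 and 10.8 with honokiol (log2 fold change 1.03, edgeR adjusted p = 0.102). Among 27 genes of death receptors, caspases and their inhibitors, CASP2 was at 15.3, 12.9 and 8.77 FPKM and at 8.40, 4.45 and 4.90 (-1.16, edgeR adjusted p = 0.148), and the inhibitor BIRC2 at 1.42, 2.65 and 3.62 FPKM and at 5.28, 5.24 and 6.33 (1.06, edgeR adjusted p = 0.159). The medians of the lists were 0.04 and 0.01.

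Glycolysis genes had members on both sides. Of 29 tested, 20 had a negative log2 fold change, 5 did not overlap and were lower (17.2%, beside 7.53% of all genes), 3 did not overlap and were higher (10.3%, beside 16.6%), and the median was -0.20. SLC2A1, the glucose transporter GLUT1, was at 9.16, 11.1 and 5.93 FPKM with DMSO and 4.46, 4.41 and 4.28 with honokiol (-1.09, edgeR adjusted p = 0.0989). HK2, hexokinase 2, was at 27.5, 34.0 and 32.8 FPKM and at 21.5, 20.7 and 20.2 (-0.68 ± 0.12, edgeR adjusted p = 0.0711), and PFKP, a phosphofructokinase, had a log2 fold change of -0.60 (edgeR adjusted p = 0.0989). HK3, the hexokinase of mature myeloid cells, was at 2.52, 4.27 and 3.22 FPKM and at 6.19, 9.11 and 5.70 (0.98, edgeR adjusted p = 0.140).

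TXNIP, the alpha-arrestin that lowers glucose uptake, was at 3.60, 5.64 and 4.93 FPKM with DMSO and 9.31, 12.6 and 14.5 with honokiol (log2 fold change 1.28 ± 0.22, edgeR adjusted p = 0.0711); its carbohydrate response element is printed above. With ARRDC3 it was past the nominal limit among 6 tested alpha-arrestins and glucose-sensing factors, and the remaining 4 lay between -0.41 and 0.08.

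Lysosome and autophagy genes had a median of 0.20 over 44 genes, with 34 positive, 9 not overlapping, all higher (20.5%, near the 16.6% of all genes), and 1, CTSD, past the nominal limit. PSAP, the precursor of saposins, was at 70.3, 109 and 74.5 FPKM with DMSO and 113, 159 and 186 with honokiol (0.76, edgeR adjusted p = 0.185). Of 31 proteasome genes 22 had a negative log2 fold change, with a median of -0.09, and PSMB5, a catalytic subunit, was at 39.0, 54.3 and 44.1 FPKM and at 26, 25.9 and 33.2 (-0.77, edgeR adjusted p = 0.105).

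All 13 mitochondrially encoded protein genes had negative values, with a median of -0.77 that became -0.24 without DMSO replicate 1. MT-CYB was at 2877, 1629 and 1637 FPKM with DMSO and 968, 917 and 1337 with honokiol (log2 fold change -1.03, edgeR adjusted p = 0.162), with DMSO replicate 1 far above the other 5 libraries. The 44 nuclear-encoded respiratory chain genes had a median of 0.01 and none past the nominal limit.

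Immediate early and TGF-β genes had members on both sides. FOSB, ZFP36L1 and FOSL1 were past the nominal limit and lower among 27 AP-1 and immediate early genes, whose median of -0.32 became 0.02 without DMSO replicate 1, when none was past the limit and lower and 1 was past it and higher. In FOSL1 the DMSO libraries spanned 4.54 to 15.6 FPKM and the honokiol libraries 2.64 to 5.68 (log2 fold change -1.2, edgeR adjusted p = 0.268). Of 22 ID and TGF-β family genes, the SMAD corepressor SKIL and ID1 were higher (1.24 and 1.14, edgeR adjusted p = 0.0966 and 0.275) and the activin subunit INHBB lower (-1.74, edgeR adjusted p = 0.0897).

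The remaining lists were small. None of 14 MHC and antigen presentation genes (median 0.20, with 4 not overlapping and higher, 28.6% beside 16.6% of all genes) and none of 19 genes of the HOXA cluster and its partners (median -0.05) passed the nominal limit. ADCY4, an adenylyl cyclase, was past it together with P2RX7 among 18 adenylyl cyclases and purinergic receptors (median -0.01). Of these 18, 8 did not overlap and were higher (44.4%, beside 16.6% of all genes) and 2 did not overlap and were lower. ADCY4 was at 0.59, 0.59 and 0.55 FPKM with DMSO and 1.41, 1.37 and 1.51 with honokiol (log2 fold change 1.21, edgeR adjusted p = 0.0637).

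**Figure D5:**
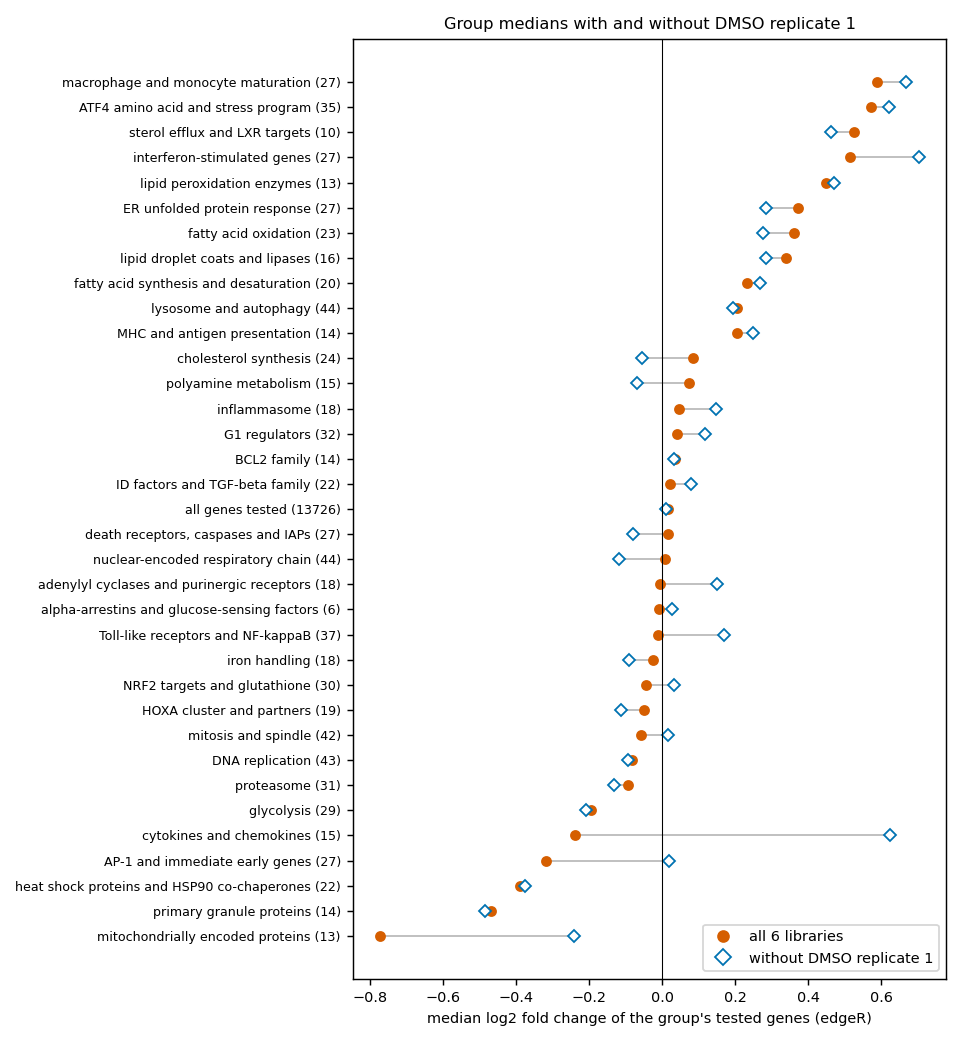
Median log2 fold change of 34 gene lists and of all genes with all 6 libraries (orange) and without DMSO replicate 1 (blue outline). The median of mitochondrially encoded genes moved from -0.77 to -0.24, that of AP-1 genes from -0.32 to 0.02 and that of cytokines from -0.24 to 0.62, while those of the ATF4, heat shock and granule lists moved by less than 0.1.

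Outside these lists, the lower protein-coding genes past the nominal limit included CTDSPL, a phosphatase that acts on the retinoblastoma protein, at 5.42, 4.49 and 4.71 FPKM with DMSO and 1.21, 1.26 and 1.91 with honokiol (log2 fold change -1.82 ± 0.23, edgeR adjusted p = 0.0502). UVSSA, of transcription-coupled repair, was at 1.81, 2.07 and 1.97 FPKM and at 0.93, 0.71 and 0.89 (-1.3, edgeR adjusted p = 0.0502). TENT5C, a poly(A) polymerase, and the polycomb-associated SFMBT2 had log2 fold changes of -1.63 and -1.83 (edgeR adjusted p = 0.0687 and 0.0876). In all 4 genes the treatments did not overlap.

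The table also gives KEGG pathway labels. Of 4447 tested genes with a pathway, 2.36% were past the nominal limit, and 291 pathways had at least 10 tested genes. The highest shares were in Bile secretion (5 of 25), PPAR signaling pathway (6 of 40), Regulation of lipolysis in adipocytes (4 of 30) and Glycine, serine and threonine metabolism (3 of 23). The bile secretion genes were the transporters and channels KCNN2, SLC2A1, AQP8 and AQP9 with ADCY4, of which 3 were higher and 2 lower, and its median was -0.10. The PPAR pathway's 6 were all higher (PLIN2, PLIN4, FABP4, SCD, PLTP and NR1H3), and its median was 0.34. Of its 40 genes, 20 did not overlap and were higher (50.0%, beside 16.6% of all genes). A further 2 did not overlap and were lower (7.53% of all genes). In Ferroptosis, 3 of 33 genes were past the limit (9.09%), SLC7A11, HMOX1 and SAT1, with a median of 0.23.

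The lowest medians were those of Ribosome biogenesis in eukaryotes, at -0.29 over 74 genes, and RNA polymerase, at -0.27 over 31 genes. In ribosome biogenesis 12 of 74 genes had a positive log2 fold change, 17 did not overlap and were lower (23.0%, beside 7.53% of all genes), and none was past the nominal limit. Without DMSO replicate 1 its median was -0.40. The highest medians were those of Retinol metabolism (0.38 over 11 genes), the PPAR pathway, Allograft rejection (0.32 over 10 genes) and the glycine and folate pathways (each 0.31, over 23 and 15 genes). Without DMSO replicate 1 that of Retinol metabolism was 0.21, and Malaria (0.34) and Hematopoietic cell lineage (0.33) were highest.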

How the data were processed

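mRNA of U-937 cells was sequenced in 3 libraries with honokiol and 3 with DMSO, grouped by the labels. The authors deposited 2 values per gene in each library, an estimated count, which they did not normalize, and an FPKM, which they scaled to transcript length and library size. The submitters' processing notes list HISAT2 2.0, StringTie 1.3.0, Bowtie 0.12.2 and a mouse build, while the identifiers and coordinates are human, 22476 genes having the start and end of GENCODE 29 (GRCh38). The labels and the methods name different instruments. Columns of the authors' own comparisons were not used.

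The estimated counts, whole numbers as deposited, were normalized by TMM and tested with edgeR 4.0.16 (R 4.3.3), without a term for the replicate, on genes past an FPKM of 0.5 in 3 of the 6 libraries. On simulated counts the test was checked with 200 changed genes. KEGG labels came from the table. Of the list genes, 11 were not found by the names listed. They include GARS, SARS and MARS of the ATF4 list, which its counts leave out, although MARS1 is among the deposited genes. Alternatives used limma 3.58.1 on log2(FPKM + 0.1, 0.5 or 1), DESeq2 1.42.0, other normalizations and filters, counts divided by 4, all 12 libraries, a replicate block and each library left out; the likelihood ratio test, other thresholds and DESeq2 without DMSO replicate 1 were added after the data were seen.

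Genes named are the DEGs, the 15 largest higher and lower protein-coding differences past the nominal limit without overlap and with a mean FPKM of at least 1 (not all are printed), the members of each list with the smallest p (up to 4) or past the nominal limit, and genes of the study's text, except 2 that are not reported here; others (HAUS4, HSPA5, HSP90B1, IFIT3, ISG15, BST2, MX2, SCARB1, SMIM7, VKORC1, KCNN2, ATF3, ATF4, ATF5, CEBPG and genes given for their overlap) were added with their values known. The members and the lists were chosen with earlier results of these data known.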

Additional observations from a re-analysis of the deposited data

How the results depend on the processing

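The number of DEGs depended on the test more than on the filter. Against 13 in edgeR's quasi-likelihood test, there were 224 with DESeq2, 24 with the robust quasi-likelihood fit, 78 with all 12 libraries in 1 fit and, chosen after the data were seen, 185 with the likelihood ratio test, 244 with DESeq2 without DMSO replicate 1 and 101 at an adjusted p under 0.1. The replicate block left 0 DEGs (326 genes past the nominal limit, which needs no adjusted p). Same-numbered libraries did not deviate together (r of -0.12, -0.09 and -0.16), so the numbers were not taken as pairs. Between treatments, r was positive only for DMSO 3 with honokiol 1 (0.26), DMSO 2 with honokiol 3 (0.22) and DMSO 1 with honokiol 2 (0.19). Whether these libraries shared a batch under another numbering was not tested, and neither the main test nor the replicate block takes account of it. Leaving out a library gave 0 to 7 DEGs, with 7 without DMSO replicate 1, 4 without DMSO replicate 3, 6 without honokiol replicate 1, 1 without honokiol replicate 2, 3 without honokiol replicate 3 and 0 without DMSO replicate 2, where 424 genes were past the nominal limit. These fits have fewer libraries. Genes past the nominal limit, 347, became 982 without an FPKM limit and 627 with edgeR's own filter, which test more genes, and 188, 370 and 110 with limma at pseudocounts of 0.5, 0.1 and 1.

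Among the genes named, signs turned in GPX4 and TFRC, both near 0. GPX4 was at 0.0325, 0.0327 and 0.0322 on the log2 scale with limma at pseudocounts of 0.5, 0.1 and 1, at 0.0505 with DESeq2 without DMSO replicate 1, and from -0.15 to 0.0466 with a library left out. TFRC was at 0.100, 0.102 and 0.0982 with limma, 0.0136 with the replicate block and from -0.37 to 0.23 with a library left out. The cause was not tested. Of 37 list medians 10 changed sign between scalings, none of them beyond 0.24 in either direction in the main test. A fragment is worth about 4 counts, so low genes rest on few fragments.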

Other observations

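Noncoding genes and pseudogenes were past the nominal limit at 3.69% of 1679 and 3.84% of 1067 tested, beside 2.19% of 10887 protein-coding genes. Of the 347 genes past the nominal limit, 98 overlapped another gene on the same strand, as did 4 of the 13 DEGs. AC004922 (ENSG00000284292), a gene model that overlaps ARPC1A and ARPC1B, had the largest positive log2 fold change of the protein-coding genes named, 5.70, and its estimated counts were 47, 180 and 0 with DMSO and 250, 10815 and 153 with honokiol, so that the difference rested on honokiol replicate 2 (edgeR adjusted p = 0.213). Of the 347 genes, 239 were past the nominal limit in the same direction without DMSO replicate 1.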
